A study of Rattus norvegicus with 12 samples.

Results

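Cells under oxygen-glucose deprivation and reperfusion (OGD/R) that were also treated with CIRBP, the cold-inducible RNA-binding protein, were compared with cells under OGD/R labelled NC. The comparison rests on 6 of the 12 RNA sequencing libraries of the study, 3 labelled OGD/R + CIRBP and 3 labelled OGD/R + NC, which were chosen by the treatment in the library titles. OGD/R is a culture model of ischaemia in which cells are held without oxygen and glucose and then returned to both. Every library used here came from cells under OGD/R, the NC libraries included, so a difference between the groups is a difference among stressed cells. The labels do not say how long the cells were deprived, how CIRBP was supplied or what NC received. The deposited columns of both groups begin with the letters ad, which no source used here explains. The titles call the libraries biological replicates, while the design text calls them duplicate samples of a group. The labels do not say that they came from separate cultures, so the p-values measure the spread between these libraries, which may be technical. The other 6 libraries, labelled si-NC and si-CIRBP, serve for the test of a difference between changes near the end, for an alternative fit of all 12 libraries and for levels set beside those of the groups compared.

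CIRBP is a small RNA-binding protein that cells make more of in mild cold and under some stresses. It binds mRNAs, changes their stability and translation, and moves to the cytoplasm and to stress granules in stressed cells. Protein released from injured cells is known as a damage signal that acts through the receptor Tlr4 and the factor NF-kB. Cells answer the loss of oxygen and nutrients with the hypoxia programme, with the integrated stress response, in which translation slows while Atf4 drives genes of amino acid supply, and with the antioxidant programme of Nrf2. Inflammatory and interferon genes are a further arm of the response to injury.

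The cells were H9C2 by their titles, a line from embryonic rat heart used as a model of cardiac muscle cells, but rat astrocytes by their cell line label. The markers fixed for each of these types were therefore examined, as FPKM, fragments counted per length of transcript and per depth of the library. Of 30 cardiac and skeletal muscle markers, 24 had a row in the table, 8 passed the filter of at least 1 FPKM in 3 or more libraries, and 9 were under 0.2 FPKM in both groups. The myogenic factor Myod1 averaged 0.0414 ± 0.04095 FPKM over the NC libraries (± SD, n = 3, here and below) and 0.0504 ± 0.0255 FPKM over the CIRBP libraries, and the cardiac factor Nkx2-5 was listed at 0 in all 6 libraries. The summed muscle markers came to 50.4 to 54.0 FPKM in the NC libraries and 57.4 to 59.4 FPKM in the CIRBP libraries. Most of that sum was Mef2c, a factor of muscle and of neural cells, at 29.9 ± 0.398 FPKM in NC. Of 12 astrocyte markers, 11 had a row and 8 were tested, with a sum of 252 to 265 FPKM in NC and 362 to 381 FPKM in CIRBP. S100b, a calcium-binding protein of glia, made up most of it in NC and averaged 181 ± 6.37 FPKM in CIRBP. The astrocyte markers Fgfr3, Aldoc, Ndrg2, Glul, Gja1 and Gfap averaged 28.9, 22.3, 18.3, 13.2, 10.1 and 4.5 FPKM in NC. The glial transporter Slc1a3 was at 0.0125 ± 0.0109 FPKM and Aldh1l1 at 0.0611 ± 0.062 FPKM in NC, and Sox9 and Slc1a2 were under 1 FPKM there. Sox10, a factor of oligodendrocytes, Schwann cells and other neural crest derivatives, had a mean of 203 ± 0.764 FPKM in the NC libraries and 155 ± 2.27 FPKM in the CIRBP libraries. The fibroblast and mesenchyme markers, of which Vim and S100a4 were the most abundant, summed to 5069.5 to 5182 FPKM in NC and 5717 to 5874 FPKM in CIRBP, although Dcn, Lum and Thy1 were under 0.2 FPKM. The summed macrophage markers (12.0 to 16.1 FPKM), endothelial markers (5.41 to 9.25 FPKM) and epithelial markers (16.5 to 18.0 FPKM) were low in both groups. The muscle factors Myod1 and Nkx2-5 were near absent or absent, while the astrocyte markers were split. Neither label is settled by its markers, and no other cell type is named here in their place. In bulk RNA such as this, fewer cells of a type and less RNA per cell cannot be told apart.

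The groups were far apart. On log2(FPKM + 1), the first principal component held 84.1% of the variance of the 6 libraries and separated NC from CIRBP, and the second held 5.0%. Of 13293 genes that reached 1 FPKM in at least 3 libraries, limma called 9876 at an adjusted p under 0.05 (74.3%), 3960 higher in CIRBP (29.8%) and 5916 lower (44.5%). With calls so common, the count of a gene group says little unless it stands apart from these shares. This holds for every list count below, also where the shares are not repeated. A log2 fold change of at least 1 in size was also met by 315 higher genes (2.37%) and 793 lower genes (5.97%), together 8.34%. For 10289 genes (77.4%) the ranges of the groups did not overlap. Of the tested genes, 506 passed the filter through NC alone and 158 through CIRBP alone, so for these the direction was built in. List counts below include such genes. The median log2 fold change of all tested genes was -0.09, and the SD between libraries of a group was small, with a median over genes of 0.0528 in NC and 0.0566 in CIRBP on the log2 scale. Scaling the libraries to one median shifted the median change from -0.09 to 0.03 and turned the split into 5235 higher against 4713 lower genes. With median ratios as the scale it was 4918 against 5001. The balance of rises and falls thus hangs on the scale chosen, and scaled counts are given below beside those of the lists. With all 12 libraries in the fit, so that the spread between the si libraries counts too, 7695 genes were called, and 39 of the named genes lost their call. List counts in that fit are given where the larger count of a list differs by more than 1.5 times. Smaller counts that differ by more are given in part. Transcripts of the mitochondrial genome made up 5.92 to 6.09% of all FPKM in NC and 7.85 to 8.33% in CIRBP, and the share of the 10 most abundant genes was 6.74 to 6.87% against 9.02 to 9.20%. How far these shares bear on the other genes was not tested.

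**Figure D1:**
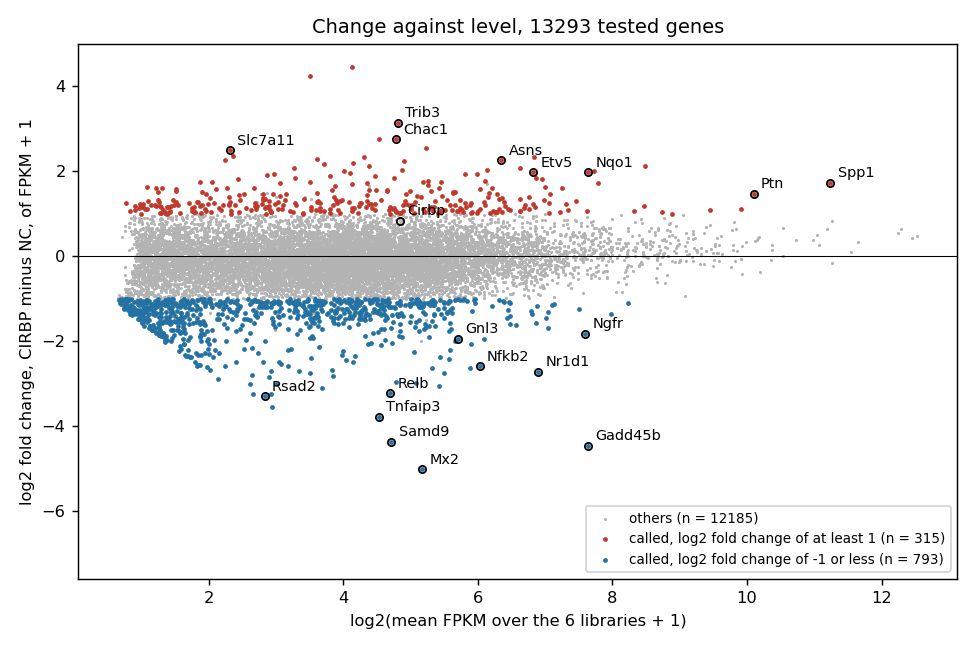
Each point is 1 of the 13293 tested genes, with its level on the horizontal axis (log2 of the mean FPKM of the 6 libraries plus 1) and the log2 fold change of CIRBP against NC on the vertical axis. The 793 genes called and at least 2-fold lower (blue) outnumber the 315 called and at least 2-fold higher (red), and they reach -5.02 at Mx2.

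Cirbp (ENSRNOG00000015999) is the check of the label. Its values were 19.03, 19.8 and 20.1 FPKM in the NC libraries and 34.3, 36.5 and 36.5 FPKM in the CIRBP libraries, so each CIRBP library stood above each NC library (log2 fold change 0.83, SE 0.0365, limma adjusted p = 1.63e-06). A per-gene value does not tell an added transcript from the cell's own. The other cold-induced RNA-binding proteins moved less. Rbm3, another RNA-binding protein induced by cold, was at 219, 222 and 217 FPKM in the NC libraries and 221, 219 and 243 FPKM in the CIRBP libraries. These groups overlapped (log2 fold change 0.05, limma adjusted p = 0.298), and the change passed the test only after scaling to one median or by median ratios. Of 16 tested genes of stress granules and mRNA decay, 12 were lower and 2 higher (44.5% and 29.8% of all tested genes). Under the 2 scalings 10 and 11 remained lower. Zfp36, which marks inflammatory mRNAs for decay, fell from 10.8 ± 0.712 to 5.21 ± 0.225 FPKM, and Caprin1, a stress granule scaffold, fell from 207 ± 2.24 to 123 ± 0.615 FPKM. The granule nucleator G3bp1 moved by only -0.102 on the log2 scale, and its sign turned under both scalings. In the fit of 12 libraries the falls of Zfp36 (limma adjusted p = 0.161) and of G3bp1 were not called.

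The interferon response fell through its effectors and its transcription factors, while its receptors and kinases were mixed. Interferons bind cell surface receptors whose Jak kinases activate Stat factors. These join Irf9 and switch on antiviral genes that carry the interferon-stimulated response element in their promoters. Of 8 receptors and kinases, Jak1 and Ifnar1 were higher and Tyk2 and Ifngr1 lower, with the others not called, and under the scalings 6 or 5 were higher and 1 lower. Ifnar1, a chain of the type I interferon receptor, was at 14.8, 14.8 and 14.3 FPKM in the NC libraries and 20.7, 21.3 and 22.4 FPKM in the CIRBP libraries (log2 fold change 0.52). Of 7 tested transcription factors, 5 were lower and 1 higher under each scaling. Irf7, which amplifies the interferon response, fell from 13.8 ± 0.426 to 2.19 ± 0.122 FPKM and Irf1 fell from 49.2 ± 2.26 to 20.9 ± 1.31 FPKM. Stat2 changed by -0.41 on the log2 scale, and Irf2 stood at 10.8 ± 0.0984 and 10.8 ± 0.701 FPKM. Irf3, which virus sensors activate, rose from 22.03 ± 1.11 to 40.1 ± 1.59 FPKM.

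Of 36 effectors listed, 32 were tested and 32 were lower, 28 of them at least 2-fold (44.5% and 5.97% of all tested genes), and 31 were lower under each scaling. Of these, 9 passed the filter through NC alone and so had to differ, and the other 23 passed in both groups. Mx2, a GTPase that blocks viruses, was at 64.2, 68.8 and 73.5 FPKM in the NC libraries and 1.38, 1.01 and 1.08 FPKM in the CIRBP libraries (log2 fold change -5.02, SE 0.0772). Samd9, an antiviral factor that curbs translation, was at 48.4, 48.8 and 50.01 FPKM in the NC libraries and 1.34, 1.58 and 1.35 FPKM in the CIRBP libraries (log2 fold change -4.37). For both genes the lowest NC library was far above the highest CIRBP library. The radical enzyme Rsad2 fell from 11.9 ± 1.11 to 0.313 ± 0.0673 FPKM, the tetratricopeptide protein Ifit3 from 10.4 ± 1.22 to 0.202 ± 0.0616 FPKM and the ubiquitin-like Isg15 from 10.9 ± 1.699 to 1.11 ± 0.176 FPKM. The Oas enzymes, which make the signal for RNA decay, fell as a family (log2 fold change -2.68 for Oas1a, -2.35 for Oasl2 and -1.85 for Oas2). Ifi27 remained the most abundant effector after it fell from 407 ± 34.8 to 189 ± 7.04 FPKM. Rtp4, another interferon-induced gene, fell from 12.8 ± 1.41 to 0.442 ± 0.1097 FPKM. Smaller falls were those of Ifit2 (log2 fold change -0.67), Cmpk2 (log2 fold change -0.802) and Gbp4 (log2 fold change -0.83). Near-identical copies exist for the Mx, Oas, Ifit and Gbp genes, so their single values are uncertain.

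Sensors and brakes of the pathway fell with it in part. The RNA sensors Dhx58, Ddx58 (RIG-I) and Ifih1 (MDA5) fell, at -2.39, -1.705 and -1.4 on the log2 scale, and their adaptor Mavs at -0.38. Among 12 sensors and adaptors of the DNA branch, 8 were lower (44.5% of all tested genes), none by 2-fold. Usp18, which removes Isg15 and dampens the receptor, was at 54.9, 57.9 and 64.5 FPKM in the NC libraries and 6.51, 7.03 and 6.35 FPKM in the CIRBP libraries (log2 fold change -2.98). The feedback inhibitors Socs1 and Socs3 went the other way. Socs3 was at 16.2, 14.3 and 14.5 FPKM in the NC libraries and 36.99, 35.5 and 31.7 FPKM in the CIRBP libraries (log2 fold change 1.16), and Socs1 rose from 4.94 ± 0.239 to 9.72 ± 1.02 FPKM. Genes of MHC class I presentation changed less, with 11 of 19 lower and 3 higher (44.5% and 29.8% of all tested genes). With libraries scaled to one median 6 were lower, with median ratios 7 and in the fit of 12 libraries 6. Tap1, the peptide pump, fell from 26.7 ± 1.35 to 13.6 ± 0.332 FPKM, while the proteasome subunit Psmb9, an interferon target in many cells, rose from 13.7 ± 0.192 to 20.1 ± 1.16 FPKM.

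The promoters of these effectors, taken from RefSeq (rat build GRCr8, 250 bases before to 50 after each gene start), show the element that the pathway acts on. A 300-base promoter was found for 8801 of 11938 tested genes with an Ensembl identifier and a name of their own. The element was searched on both strands as GAAA, any pair of bases and GAAA again, and it was present in 18 of 25 effectors with a promoter (72.0%), in 2.93% of all tested genes with a promoter and in 8.06% of those called and at least 2-fold lower. The stretches below, cut from the promoters around each match, show it for effectors with large falls and for Irf7, with the matched bases in capitals.
Samd9: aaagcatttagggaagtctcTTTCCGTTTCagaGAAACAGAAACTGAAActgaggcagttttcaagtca
Rsad2: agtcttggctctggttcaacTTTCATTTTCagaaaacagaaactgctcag
Ifit3: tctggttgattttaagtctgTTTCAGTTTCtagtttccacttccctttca
Oas1a: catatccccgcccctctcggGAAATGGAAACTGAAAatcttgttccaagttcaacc
Irf7: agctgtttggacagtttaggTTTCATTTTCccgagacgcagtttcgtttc
They lie at chr4:32138946-32139014, minus strand (Samd9), at chr6:48788238-48788287, minus strand (Rsad2), at chr1:241527262-241527311, plus strand (Ifit3), at chr12:41330405-41330460, plus strand (Oas1a) and at chr1:205800063-205800112, minus strand (Irf7). Each is printed 5′ to 3′ on the strand of its gene, so a match that reads TTTC at its left end is the element on the opposite strand. Samd9 holds 3 overlapping or adjoining matches in the 36 bases before its start, and Oas1a holds 2 that overlap. A match describes the sequence and shows no binding.

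The NF-kB pathway fell at its subunits and its inhibitors together. NF-kB dimers are held in the cytoplasm by inhibitors of the IkB family until kinases of the Ikk complex remove them, and the dimers then drive inflammatory genes together with their own inhibitors. All 5 subunits were lower at least 2-fold. Relb was at 45.1, 45.3 and 47.2 FPKM in the NC libraries and 4.22, 3.63 and 4.11 FPKM in the CIRBP libraries (log2 fold change -3.23), and Nfkb2, its partner in the non-canonical branch, at 109.9, 110.0 and 113 FPKM in the NC libraries and 17.2, 17.4 and 18.3 FPKM in the CIRBP libraries (log2 fold change -2.59). The canonical subunits Nfkb1 and Rela fell less, at -1.32 and -1.06 on the log2 scale. Of 10 inhibitors 9 were lower (8 under each scaling), 7 of them at least 2-fold, and Nfkbiz was not called. Tnfaip3, the ubiquitin-editing brake A20, was at 43.3, 41.5 and 41.2 FPKM in the NC libraries and 2.18, 1.76 and 2.48 FPKM in the CIRBP libraries (log2 fold change -3.78, limma adjusted p = 1.75e-07). The IkB genes Nfkbia, Nfkbie and Nfkbib changed by -2.07, -2.003 and -1.49 on the log2 scale. Cyld, another deubiquitinase of the pathway, fell from 26.5 ± 0.316 to 9.86 ± 0.374 FPKM.

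Upstream and downstream of the subunits the picture was less even. Of 13 receptors and adaptors, 10 were lower and 3 higher under each scaling. Traf2, the adaptor of the tumour necrosis factor receptors, fell from 71.8 ± 3.48 to 12.98 ± 0.985 FPKM, and Tlr4, the receptor named above for extracellular CIRBP, fell from 15.02 ± 0.195 to 6.95 ± 0.637 FPKM. In the other direction, Tnfrsf1a rose from 32.8 ± 1.05 to 48.4 ± 1.45 FPKM and Il1rap, the shared chain of the interleukin-1 receptors, rose from 29.6 ± 0.345 to 69.4 ± 4.07 FPKM. The kinase genes Map3k14, Ikbkb, Chuk and Ikbkg fell by less than 2-fold. Among 26 listed targets 12 were tested, of which 8 were lower, 1 higher (2 under each scaling) and 3 not called. Icam1, an adhesion molecule for leukocytes, was at 79.7, 78.9 and 78.4 FPKM in the NC libraries and 13.9, 13.9 and 13.8 FPKM in the CIRBP libraries (log2 fold change -2.43), and the growth factor Csf1 fell from 107 ± 2.48 to 26.8 ± 0.321 FPKM. Birc3, an inhibitor of cell death, fell from 14.6 ± 0.1203 to 1.603 ± 0.174 FPKM, and the interleukin-33 receptor Il1rl1 fell from 12.95 ± 1.36 to 1.49 ± 0.137 FPKM. Sod2, the mitochondrial superoxide dismutase and a known NF-kB target, rose slightly (log2 fold change 0.2). Of 9 tested chemokine ligands 9 were lower and 8 under each scaling, with 4 that passed the filter through NC alone. Cxcl1 was at 32.4, 31.1 and 32.4 FPKM in the NC libraries and 5.39, 5.29 and 11.2 FPKM in the CIRBP libraries, so 1 CIRBP library stood above the other two but still below every NC library. Cxcl10 and Ccl2, the most abundant of them, fell less (log2 fold change -0.84 and -0.83) and were not called in the fit of 12 libraries (limma adjusted p = 0.101 and 0.113), nor was Sod2.

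Matches to the kB consensus were found in 11 of 20 NF-kB subunits, inhibitors and targets with a promoter (55.0%) and in 9.68% of all tested genes with one. They are shown for genes of this group with large falls.
Tnfaip3: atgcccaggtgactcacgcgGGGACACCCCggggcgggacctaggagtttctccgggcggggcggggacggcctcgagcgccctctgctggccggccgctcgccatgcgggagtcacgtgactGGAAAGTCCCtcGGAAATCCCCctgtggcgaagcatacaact
Nfkb2: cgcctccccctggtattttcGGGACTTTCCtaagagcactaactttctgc
Nfkbia: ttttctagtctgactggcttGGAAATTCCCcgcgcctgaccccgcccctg
Cxcl1: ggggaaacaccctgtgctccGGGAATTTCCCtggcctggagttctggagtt
Capitals mark the matches, of which Tnfaip3 holds 3. The pair in Cxcl1 overlaps, with 1 match to the consensus on each strand. The stretches are chr1:15544005-15544169, minus strand (Tnfaip3), chr1:255108334-255108383, plus strand (Nfkb2), chr6:78597074-78597123, minus strand (Nfkbia) and chr14:17479375-17479425, minus strand (Cxcl1). Among genes at least 2-fold lower as a whole, 11.8% held a match, and 9.47% of those at least 2-fold higher.

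**Figure D2:**
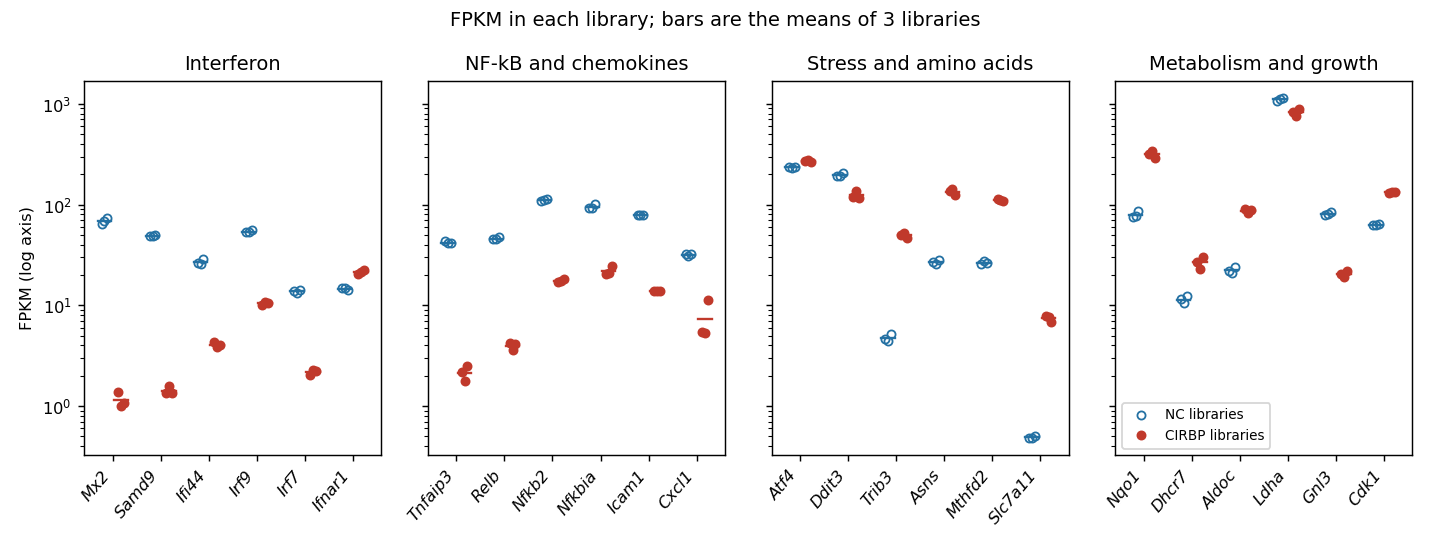
FPKM of 24 genes in each of the 3 NC libraries (open blue) and 3 CIRBP libraries (filled red), on a log axis, with bars at the group means. The libraries of a group lie close together, and the groups do not overlap for any gene shown, including Atf4, with a log2 fold change of 0.21.

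The genes listed as targets of the integrated stress response rose while the factors Ddit3, Atf3 and Atf5 fell. In this response, kinases that sense amino acid shortage, ER stress, viral RNA or lack of haem phosphorylate the initiation factor eIF2. Translation of Atf4 then increases, and Atf4 with its partners drives genes for amino acid supply and redox balance. Of 9 tested genes listed as targets, 9 were higher and 6 at least 2-fold (29.8% and 2.37% of all tested genes). All 9 were higher under each scaling. Ddit3, Atf3 and Ppp1r15a, which the response also induces, were listed under other roles and fell, so this count leaves them out. Trib3, a pseudokinase that feeds back on Atf4, was at 4.601, 4.41 and 5.19 FPKM in the NC libraries and 49.7, 51.9 and 47.2 FPKM in the CIRBP libraries (log2 fold change 3.14, limma adjusted p = 1.18e-07). Chac1, which breaks down glutathione, was at 5.74, 5.87 and 6.76 FPKM in the NC libraries and 45.6, 47.8 and 47.4 FPKM in the CIRBP libraries (log2 fold change 2.75). Asns, the asparagine synthetase, was at 26.8, 25.98 and 28.4 FPKM in the NC libraries and 136, 142 and 123 FPKM in the CIRBP libraries (log2 fold change 2.26). In each, the lowest CIRBP library was several times the highest NC library. The secreted Stc2 and the mTOR inhibitor Ddit4 also rose (log2 fold change 2.34 and 1.42), as did the lipoprotein receptor Vldlr (log2 fold change 1.53).

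The regulators moved differently. Atf4 itself was at 236, 229 and 239 FPKM in the NC libraries and 272, 275 and 264 FPKM in the CIRBP libraries, a log2 fold change of 0.21 that is small beside those of its targets, and its translation was not measured here. The pro-death factor Ddit3 (CHOP) fell from 199 ± 8.02 to 124 ± 9.84 FPKM. Atf3 fell from 6.48 ± 0.4999 to 1.66 ± 0.118 FPKM and Atf5 fell from 105 ± 2.14 to 75.7 ± 3.51 FPKM. Ppp1r15a (GADD34), the subunit that ends the response by removing the phosphate, fell from 73.3 ± 2.53 to 21.8 ± 2.25 FPKM, whereas the constitutive Ppp1r15b rose from 18.0 ± 0.382 to 28.4 ± 0.9098 FPKM. In the fit of 12 libraries Atf4, Ddit3 and the target Ddit4 were not called (limma adjusted p = 0.281, 0.218 and 0.0636). Of the 4 kinases, Eif2ak2, which is also an interferon effector, fell most (log2 fold change -1.56), followed by Eif2ak1 (log2 fold change -0.72), the ER sensor Eif2ak3 (log2 fold change -0.32) and the amino acid sensor Eif2ak4 (log2 fold change -0.18). The call of Eif2ak4 was lost under both scalings. Genes of the ER branch were mixed. Of 16 ER chaperones and folding enzymes 5 were higher and 7 lower, near the shares of all tested genes (29.8% and 44.5%). That split turned round under both scalings, to 9 and 3 with one median and to 8 and 5 with median ratios. It was 4 and 4 in the fit of 12 libraries. Of 12 genes of ER degradation and export 7 were higher and 4 lower, and 8 and 2 under each scaling. Of 9 ER sensors and factors 2 were higher and 5 lower, and 3 and 4 under each scaling. The ER chaperone Hspa5 (BiP) was at 237 ± 5.18 and 204 ± 0.587 FPKM, a fall not called in the fit of 12 libraries (limma adjusted p = 0.13). Xbp1 fell from 52.9 ± 0.679 to 33.5 ± 0.8199 FPKM, while Pdia4 changed by 0.56 on the log2 scale.

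Some genes of amino acid synthesis and import rose, while those of charging moved in both directions. Within the serine and glycine group, 5 of 7 were higher, 4 at least 2-fold, led by Psat1 (log2 fold change 1.77), Shmt2 (log2 fold change 1.62), Psph (log2 fold change 1.603) and Phgdh (log2 fold change 1.35), the enzymes from glycolysis to serine and glycine in the mitochondrion. Mthfd2, the mitochondrial folate enzyme downstream, was at 25.95, 27.3 and 26.6 FPKM in the NC libraries and 113, 112 and 109 FPKM in the CIRBP libraries (log2 fold change 2.02). The cytosolic counterparts Shmt1 (log2 fold change -0.45) and Mthfd1 (log2 fold change -0.44) went down. Pycr1, the mitochondrial enzyme of proline synthesis, rose from 9.95 ± 0.399 to 63.2 ± 5.34 FPKM, while its cytosolic relative Pycr3 fell from 30.8 ± 0.963 to 23.97 ± 0.379 FPKM. Gpt2, Aldh18a1 and Got1 rose by 1.29, 0.88 and 0.76 on the log2 scale.

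Among 18 tested amino acid transporters, 9 were higher and 6 lower (29.8% and 44.5% of all tested genes). Under the scalings 11 and 5 or 10 and 5 were. Of the 18, 2 passed the filter through CIRBP alone, Slc7a11 among them, so their direction was built in. Slc7a11, which imports cystine, was at 0.485, 0.4798 and 0.506 FPKM in the NC libraries and 7.79, 7.66 and 6.89 FPKM in the CIRBP libraries and was the furthest from its NC level (log2 fold change 2.501). Slc6a9 (glycine), Slc1a4 and Slc1a5 (neutral amino acids) and Slc7a5 (leucine and other large amino acids) rose by 1.97, 1.76, 1.24 and 1.099 on the log2 scale. Slc3a2, the heavy chain that Slc7a11 and Slc7a5 need at the membrane, fell from 226 ± 5.24 to 167 ± 3.03 FPKM. Slc38a2, a textbook target of amino acid shortage, rose by 0.12 on the log2 scale, but neither its call nor those of Shmt1 and Aldh18a1 held in the fit of 12 libraries. The transporters that fell most were Slc7a7 (log2 fold change -1.49), Slc38a7 (log2 fold change -1.23) and Slc36a1 (log2 fold change -0.88), the last pair of the lysosome.

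Aminoacyl-tRNA synthetases, which load amino acids onto tRNA, moved in both directions. Of 36 tested, 13 were higher and 17 lower, not far from the shares of all tested genes (29.8% and 44.5%). Of 20 cytosolic enzymes, 11 were higher and 8 lower, against 2 higher and 9 lower of 16 mitochondrial ones. Under the scalings the splits were 12 and 6 or 11 and 7 for the cytosolic enzymes, and 5 and 7 or 4 and 7 for the mitochondrial ones. The fit of 12 libraries gave 11 and 7 for the former and 1 and 6 for the latter. Cars (cysteine) was at 25.2, 24.9 and 25.5 FPKM in the NC libraries and 73.7, 75.8 and 72.6 FPKM in the CIRBP libraries, and Mars1 (methionine) at 46.1, 49.1 and 48.2 FPKM in the NC libraries and 120.5, 120.3 and 114 FPKM in the CIRBP libraries. Lars1, Gars, Sars1 and Nars1 rose by 0.998, 0.94, 0.94 and 0.83 on the log2 scale. Rars1 (arginine) fell from 76.5 ± 1.46 to 36.4 ± 2.49 FPKM, with Dars, Farsa and Farsb lower too (log2 fold change -0.66, -0.64 and -0.54). Its mitochondrial counterpart Rars2 also fell (log2 fold change -1.26).

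A C/EBP-ATF composite element, the site bound by Atf4 with a C/EBP partner, was searched as TGATGNAA. It was present in 14 of 79 promoters of integrated stress response targets, amino acid synthesis genes, transporters and synthetases (17.7%), in 1.92% of all tested genes with a promoter, in 7.37% of those at least 2-fold higher and in 1.53% of those at least 2-fold lower. Examples from genes that rose are shown with the match in capitals.
Trib3: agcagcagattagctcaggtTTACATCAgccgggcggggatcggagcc
Chac1: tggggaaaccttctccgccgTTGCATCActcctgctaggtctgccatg
Pycr1: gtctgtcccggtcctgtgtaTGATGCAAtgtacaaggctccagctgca
Mars1: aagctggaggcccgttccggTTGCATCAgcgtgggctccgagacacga
The stretches are chr3:161275527-161275574, minus strand (Trib3), chr3:126795944-126795991, plus strand (Chac1), chr10:106420916-106420963, minus strand (Pycr1) and chr7:65023743-65023790, minus strand (Mars1). The match lies 21 bases before the start in Trib3 and 167 before it in Chac1. Gadd45g, which fell, also held a match, so the letters alone do not go with one direction.

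Most genes of the Nrf2 antioxidant programme for glutathione and NADPH rose. Nrf2 (Nfe2l2) is a factor that Keap1 holds down until oxidants or electrophiles release it. Nfe2l2 mRNA was at 108, 106 and 109 FPKM in the NC libraries and 117, 116 and 112 FPKM in the CIRBP libraries, a log2 fold change of 0.09, and Keap1 fell from 20.5 ± 0.558 to 16.7 ± 0.739 FPKM. Of 19 tested genes for glutathione and thioredoxin, 16 were higher and 2 lower under each scaling. Slc7a11 is among the 16 and passed the filter through CIRBP alone. Nqo1, the quinone reductase used as the standard readout of Nrf2, was at 75.9, 76.6 and 86.03 FPKM in the NC libraries and 317, 342 and 290.3 FPKM in the CIRBP libraries (log2 fold change 1.98). Gclc, the catalytic subunit that starts glutathione synthesis, rose from 41.1 ± 0.903 to 78.02 ± 5.07 FPKM and its partner Gclm from 27.7 ± 0.917 to 38.4 ± 2.21 FPKM. The glutathione transferases Gstp1 and Gsta1 and the aldose reductase relative Akr1b8 rose by 1.19, 1.65 and 1.07 on the log2 scale. In the pentose phosphate pathway, which makes NADPH, Tkt rose from 101 ± 1.44 to 339.9 ± 28.7 FPKM. Hmox1, the haem oxygenase that Nrf2 also drives, fell from 80.4 ± 4.03 to 58.8 ± 0.844 FPKM (not called in the fit of 12 libraries, limma adjusted p = 0.316), and Prdx6 fell from 56.5 ± 2.38 to 33.2 ± 0.525 FPKM. The calls of Nfe2l2 and Keap1 were lost in that fit as well. Of 25 Nrf2 targets with a promoter, 24.0% held the core of the antioxidant response element (TGACNNNGC), against 15% of all tested genes with a promoter.

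Iron genes did not move together. Tfrc, the transferrin receptor that brings iron in, was at 45.5, 46.1 and 43.4 FPKM in the NC libraries and 11.1, 9.84 and 13.1 FPKM in the CIRBP libraries (log2 fold change -1.91). The iron sensors Aco1 and Ireb2 fell (log2 fold change -0.64 and -0.19), though the call of Ireb2 was lost under both scalings. Slc11a2, the iron transporter of the endosome, fell as well (log2 fold change -0.59). The zinc exporter Slc30a1 fell from 15.4 ± 0.663 to 6.31 ± 0.233 FPKM, and the copper oxidase Cp rose from 10.4 ± 0.176 to 18.3 ± 0.612 FPKM.

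Genes of sterol and fatty acid synthesis rose. Of 20 tested enzymes of cholesterol synthesis, 16 were higher and none lower at an adjusted p under 0.05 in limma, and 17 were higher and none lower under each scaling. In the fit of 12 libraries 10 were higher and none lower. The log2 fold changes ran from -0.11 at Hsd17b7 (not called) to 1.16 at Dhcr7. Dhcr7, which makes cholesterol from its last precursor, was at 11.5, 10.4 and 12.3 FPKM in the NC libraries and 27.1, 23.2 and 30.3 FPKM in the CIRBP libraries, so each CIRBP library stood above each NC library. The control genes Srebf2 and Insig1 rose (log2 fold change 1.21 and 1.39), while Srebf1, the relative that favours fatty acid synthesis, fell from 2.68 ± 0.144 to 1.08 ± 0.174 FPKM. Efflux and storage were mixed, with Apoe lower (log2 fold change -1.98), Npc1 lower (log2 fold change -0.95) and Abcg1 higher (log2 fold change 0.77). In fatty acid synthesis 9 of 12 were higher and 1 lower under each scaling, with rises of desaturases and elongases, Scd by 1.896, Scd2 by 0.98, Fads1 by 1.25 and Elovl5 by 1.23 on the log2 scale. Fasn, which makes the fatty acid chain itself, fell from 69.6 ± 2.21 to 53.04 ± 6.57 FPKM, with its call lost in the fit of 12 libraries, and Acaca and Acly changed by 0.23 and 0.15 on the log2 scale. No match to the sterol regulatory element (TCACNCCAC) was found in 21 promoters of sterol enzymes and transport genes, and 1.12% of all tested genes with a promoter held one.

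Glycolysis and hypoxia targets rose although Hif1a fell. Hif1a encodes the oxygen-labile subunit of the hypoxia-inducible factor, which is set mainly by protein decay, so its mRNA need not follow its activity. It was at 70.3, 69.1 and 68.9 FPKM in the NC libraries and 40.7, 39.2 and 39.7 FPKM in the CIRBP libraries (log2 fold change -0.79). Of 24 tested genes of glycolysis and pyruvate handling, 20 were higher and 3 lower, and 20 and 2 under each scaling, but 10 and 1 in the fit of 12 libraries. Aldoc, a brain-type aldolase, was at 22.1, 20.8 and 23.96 FPKM in the NC libraries and 91.01, 83.5 and 87.7 FPKM in the CIRBP libraries (log2 fold change 1.93). Pkm, which makes pyruvate, rose from 719 ± 31.7 to 1116 ± 43.8 FPKM, Pgk1 rose from 480.1 ± 18.8 to 692 ± 34.0 FPKM and Gpi rose from 231 ± 7.13 to 370.4 ± 27.3 FPKM. Pck2, the mitochondrial enzyme that turns oxaloacetate to phosphoenolpyruvate, rose from 10.8 ± 0.315 to 41.2 ± 1.12 FPKM. Ldha, which turns pyruvate to lactate, was at 1076, 1117 and 1143 FPKM in the NC libraries and 839, 752 and 898 FPKM in the CIRBP libraries, lower in every CIRBP library (log2 fold change -0.43), while Ldhb rose from 39.3 ± 0.913 to 64.8 ± 1.29 FPKM. Of 18 hypoxia targets 13 were higher and 2 lower, and 16 and 2 under each scaling, but 3 and 2 in the fit of 12 libraries. Vegfa, the vessel growth factor, rose from 30.4 ± 0.906 to 66.01 ± 2.11 FPKM, and Bnip3, which marks mitochondria for removal, rose from 47.0 ± 4.41 to 95.7 ± 8.86 FPKM. The carbonic anhydrase Ca9, a marker of hypoxic cells, was already at 100.5 ± 4.35 FPKM in NC and reached 124 ± 7.59 FPKM. The demethylase Kdm3a fell (log2 fold change -0.899). Not called in the fit of 12 libraries were Ldha (limma adjusted p = 0.103), Gpi (0.051 by the same test), Bnip3 and Ca9.

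Genes of ribosome making fell almost as a whole. Ribosome biogenesis runs in the nucleolus, where RNA polymerase I makes the precursor RNA and assembly factors process it. Of 26 tested genes, 25 were lower and 1 higher, 7 lower by at least 2-fold (44.5% and 5.97% of all tested genes), and 24 stayed lower under each scaling. Gnl3 (nucleostemin) was at 79.4, 80.4 and 84.3 FPKM in the NC libraries and 20.6, 19.1 and 21.9 FPKM in the CIRBP libraries (log2 fold change -1.94). The processing factors Nop14, Wdr43, Utp20 and Nop2 fell (log2 fold change -1.48, -1.398, -1.38 and -1.34). Ncl and Npm1, the abundant nucleolar proteins, changed by -0.66 and -0.25, and Polr1a, the large subunit of RNA polymerase I, by -0.83 on the log2 scale. Nop10 was the 1 that rose (log2 fold change 0.25). Myc, a factor known to drive these genes, was at 31.9, 30.7 and 32.1 FPKM in the NC libraries and 11.9, 12.7 and 11.4 FPKM in the CIRBP libraries (log2 fold change -1.33). Of 16 tested genes of nucleotide supply, 8 were higher and 6 lower (9 and 4 when scaled). The calls of Paics and Ppat were lost when scaled. The 6 lower ones were Cad, the first enzyme of pyrimidine synthesis (log2 fold change -0.52), and the purine enzymes Gmps (log2 fold change -0.66), Gart (log2 fold change -0.63), Atic (log2 fold change -0.62), Paics (log2 fold change -0.18) and Ppat (-0.11, with its sign turned when scaled to one median), while Impdh2, another purine enzyme, was higher (log2 fold change 0.34). Of 25 translation factors 14 were lower and 7 higher (13 and 9 when scaled), not far from the shares of all tested genes (44.5% and 29.8%). Eif3a was at -1.14 and, in the other direction, Eif4ebp1, which restrains cap-dependent translation, at 1.63 on the log2 scale.

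The E-box CACGTG, which Myc and the clock factors bind, was present in 34.8% of 23 promoters of ribosome biogenesis genes, in 9.84% of all tested genes with a promoter, in 17.9% of those at least 2-fold lower and in 7.37% of those at least 2-fold higher. It is shown for 3 genes of this group.
Gnl3: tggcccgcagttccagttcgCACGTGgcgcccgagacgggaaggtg
Nop2: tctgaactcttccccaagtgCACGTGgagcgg
Utp20: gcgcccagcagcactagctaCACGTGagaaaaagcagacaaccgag
The stretches are chr16:6219782-6219827, minus strand (Gnl3), chr4:159618984-159619015, plus strand (Nop2) and chr7:25102951-25102996, minus strand (Utp20), with the element in capitals.

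Protein folding and mitochondrial supply fell to a smaller extent. Of 17 cytosolic chaperones 14 were lower and 1 higher, but 9 and 10 were lower under the 2 scalings and 9 in the fit of 12 libraries. Hsph1, a helper of Hsp70, fell from 38.9 ± 1.13 to 14.5 ± 0.644 FPKM, Hspa4 fell from 113 ± 0.891 to 57.01 ± 1.95 FPKM and the constitutive Hspa8 fell from 519 ± 11.5 to 379 ± 3.37 FPKM. Of 30 mitochondrial ribosomal proteins 22 were lower and 2 higher (14 and 4, or 16 and 4, when scaled), and of 14 genes for coenzyme Q synthesis 11 were lower and 2 higher (8 and 3 when scaled). Among the latter, Fdx2 and Pdss1 fell (log2 fold change -1.14 and -0.85). Mitochondrial genome transcripts went up instead. Mt-co2, a subunit of cytochrome oxidase, was at 3944, 3758 and 4028 FPKM in the NC libraries and 5907, 6191 and 6193 FPKM in the CIRBP libraries (log2 fold change 0.64), and Mt-nd1 rose from 1761 ± 32.2 to 3152 ± 155 FPKM. Mt-co3, Mt-atp6, Mt-co1 and Mt-cyb rose by 0.47, 0.55, 0.44 and 0.32 on the log2 scale. Eef1a1, the elongation factor that brings tRNA to the ribosome, rose from 1734 ± 36.03 to 2462 ± 106 FPKM, and the ribosomal protein gene Rps2 fell from 1315 ± 7.07 to 1019 ± 19.5 FPKM, both genes with near-identical copies and so uncertain.

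Genes of DNA replication and mitosis rose. Of 41 tested genes of G2 and mitosis, 37 were higher and 2 lower, and 39 and 2 under each scaling, but 18 and 0 in the fit of 12 libraries. Cdk1, the kinase that starts mitosis, was at 62.2, 62.7 and 63.8 FPKM in the NC libraries and 131, 134 and 134 FPKM in the CIRBP libraries (log2 fold change 1.07). Top2a, the topoisomerase of dividing cells, rose from 50.5 ± 1.26 to 100.3 ± 2.001 FPKM, and Mki67, the proliferation marker, rose from 57.6 ± 3.95 to 78.9 ± 1.85 FPKM. Mki67 was not called in that fit (limma adjusted p = 0.139), nor were Plk1 and Fzr1. Smaller changes were those of Plk1 (log2 fold change 0.104) and Cdc20 (log2 fold change 0.095, not called). Fzr1, which destroys mitotic proteins in G1, fell from 46.6 ± 1.64 to 34.9 ± 2.05 FPKM. Of 25 replication genes of origins, helicase and polymerases, 20 were higher and none lower in limma, and 23 and none under each scaling. Within nucleotide supply, Tk1 and Rrm2, which serve DNA precursors, rose (log2 fold change 1.12 and 0.75). Ccnd1, the cyclin of growth factor signals, was at 447, 449.7 and 443 FPKM in the NC libraries and 971, 931 and 941 FPKM in the CIRBP libraries (log2 fold change 1.08). Of 26 DNA repair genes 16 were higher and 5 lower, and 21 and 2 under each scaling. The fit of 12 libraries gave 14 and 2. Brca1 changed by 0.902 and Apex1 by -1.12 on the log2 scale. The CCAAT box, a frequent element of mitotic promoters, was present in 77.1% of 35 promoters of the G2 and mitosis list and in 38.9% of all tested genes with a promoter. Cdk1 holds 3 matches.
Cdk1: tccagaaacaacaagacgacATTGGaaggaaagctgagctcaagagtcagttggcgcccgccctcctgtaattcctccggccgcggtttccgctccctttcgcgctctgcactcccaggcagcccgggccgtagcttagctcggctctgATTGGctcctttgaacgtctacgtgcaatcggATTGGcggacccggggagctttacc
This stretch is chr20:19265063-19265268, plus strand. The capitals read ATTGG, which is the box on the opposite strand.

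All 3 Gadd45 genes fell. Gadd45b, a growth arrest and survival gene that NF-kB drives, was at 371, 372 and 394 FPKM in the NC libraries and 16.9, 16.3 and 15.6 FPKM in the CIRBP libraries (log2 fold change -4.46). Gadd45g was at 74.1, 72.6 and 80.3 FPKM in the NC libraries and 6.99, 8.897 and 9.06 FPKM in the CIRBP libraries (log2 fold change -3.05), and Gadd45a fell less (log2 fold change -0.49). Mdm2, a ubiquitin ligase, was at 140.0, 138 and 146 FPKM in the NC libraries and 46.7, 45.3 and 44.5 FPKM in the CIRBP libraries (log2 fold change -1.61). Sesn2, a stress gene that Atf4 drives, rose from 12.96 ± 0.409 to 24.7 ± 1.04 FPKM. The cell cycle inhibitor Cdkn1a rose by 0.196 on the log2 scale, and in the fit of 12 libraries neither Cdkn1a nor Gadd45a was called. Among death genes, the proapoptotic Bid fell from 12.7 ± 0.124 to 4.76 ± 0.272 FPKM and Bcl2l11 (Bim) rose from 5.26 ± 0.24 to 10.3 ± 0.329 FPKM. Of 24 apoptosis regulators 10 were higher and 7 lower (29.8% and 44.5% of all tested genes). The split was 13 and 4 or 11 and 5 under the scalings, and 6 and 6 in the fit of 12 libraries.

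Feedback genes of receptor tyrosine kinases rose. Growth factor receptors signal through Ras and Erk, and Erk induces the Sprouty proteins, the Dusp phosphatases and the Etv factors, which are used as readouts of that signal. Of 18 tested feedback genes, 13 were higher and 4 lower, and 14 and 2 under each scaling. The fit of 12 libraries gave 10 and 2. Etv5 was at 45.1, 45.2 and 43.6 FPKM in the NC libraries and 181, 180.1 and 176 FPKM in the CIRBP libraries (log2 fold change 1.98), Spry4 at 10.4, 10.4 and 10.2 FPKM in the NC libraries and 36.4, 29.6 and 31.8 FPKM in the CIRBP libraries (log2 fold change 1.56) and Dusp6, which removes phosphate from Erk, at 23.4, 23.4 and 22.6 FPKM in the NC libraries and 66.1, 58.8 and 65.7 FPKM in the CIRBP libraries (log2 fold change 1.42). For each of them all CIRBP libraries stood above all NC libraries. Dusp10, which acts on p38 and Jnk and not on Erk, fell from 25.3 ± 0.967 to 4.22 ± 0.135 FPKM. Of 13 tested ligands 8 were higher and 4 lower (29.8% and 44.5% of all tested genes). Of the 13, 2 passed the filter through NC alone, so their direction was built in. Among the higher ligands were Hbegf (log2 fold change 0.73) and Bdnf (log2 fold change 0.63). Hbegf was not called in the fit of 12 libraries (limma adjusted p = 0.0704). The receptors were mixed, with Ntrk2 and Pdgfra higher (log2 fold change 1.098 and 0.86) and Met and Erbb3 lower (log2 fold change -0.64 and -0.46).

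Of 29 tested immediate early genes 7 were higher and 16 lower, and 9 and 14 or 8 and 16 under the scalings. That split is not far from the shares of all tested genes (29.8% and 44.5%). Egr1, which growth factors induce within minutes, was at 5.54, 5.35 and 5.01 FPKM in the NC libraries and 19.5, 26.1 and 28.7 FPKM in the CIRBP libraries (log2 fold change 2.02), and Egr2, Ier2, Ier3 and Nr4a1 rose by 1.05, 0.91, 0.99 and 0.82 on the log2 scale. Fos and Jun hardly moved, at 9.25 ± 0.222 and 9.12 ± 1.51 FPKM and at 253 ± 5.38 and 244 ± 4.68 FPKM. Among those that fell, Junb fell from 143 ± 2.05 to 72.1 ± 3.69 FPKM, and Batf3, Klf6, Ccn1, Mafk, Klf10, Fosl2 and Ier5 changed by -1.899, -1.41, -1.42, -1.39, -0.94, -0.67 and -0.66 on the log2 scale. Junb (limma adjusted p = 0.0608) and Ier3 were not called in the fit of 12 libraries. In the circadian clock, 10 of 13 repressors were lower and none higher in limma (9 lower when scaled). Nr1d1 was at 211, 202 and 205 FPKM in the NC libraries and 31.3, 32.2 and 28.1 FPKM in the CIRBP libraries (log2 fold change -2.72), Bhlhe40 (log2 fold change -1.56) and Per1 (log2 fold change -0.96) fell, while Per2 and Per3 were not called (log2 fold change -0.07 and -0.02).

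Matrix, adhesion and cell shape genes rose for the most part. Of 12 tested collagen chains 10 were higher and none lower in limma (11 when scaled, 5 in the fit of 12 libraries). Col6a1 and Col6a2, abundant chains of the pericellular matrix, rose from 322 ± 6.59 to 498 ± 16.4 FPKM and from 351 ± 4.198 to 543 ± 11.8 FPKM. Fn1 (fibronectin) rose from 467 ± 15.1 to 709 ± 17.7 FPKM, and Eln (elastin) rose from 4.21 ± 0.513 to 16.6 ± 0.746 FPKM. Of 19 integrins and cadherins 14 were higher and 3 lower (16 and 2 when scaled). Itgb1, the shared beta chain, was at 241, 241 and 244 FPKM in the NC libraries and 449, 446 and 433 FPKM in the CIRBP libraries (log2 fold change 0.87), and its partners Itga3, Itga6 and Itga1 rose by 0.91, 0.84 and 0.74 on the log2 scale. The opposite direction was taken by Thbs1 (log2 fold change -1.19), Timp1, an inhibitor of matrix proteases (log2 fold change -1.73), Mmp9 (log2 fold change -1.41), Cd44 (log2 fold change -0.51) and Itgb8 (log2 fold change -0.797). Of 18 tubulin and microtubule genes 13 were higher and 4 lower (14 and 3, or 14 and 4, when scaled, and 11 and 2 in the fit of 12 libraries). Tubb3, a tubulin of neurons and of growing cells, was at 3.33, 3.02 and 3.18 FPKM in the NC libraries and 18.3, 20.3 and 19.2 FPKM in the CIRBP libraries (log2 fold change 2.28), while Tuba4a fell from 5.57 ± 0.0458 to 1.34 ± 0.225 FPKM. Axon guidance genes had 13 of 21 members higher and 6 lower (14 and 5, or 14 and 6, when scaled), with Sema3b, Unc5b, Efnb1 and Sema3a at 1.28, 1.25, 1.204 and 1.04 on the log2 scale.

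**Figure D3:**
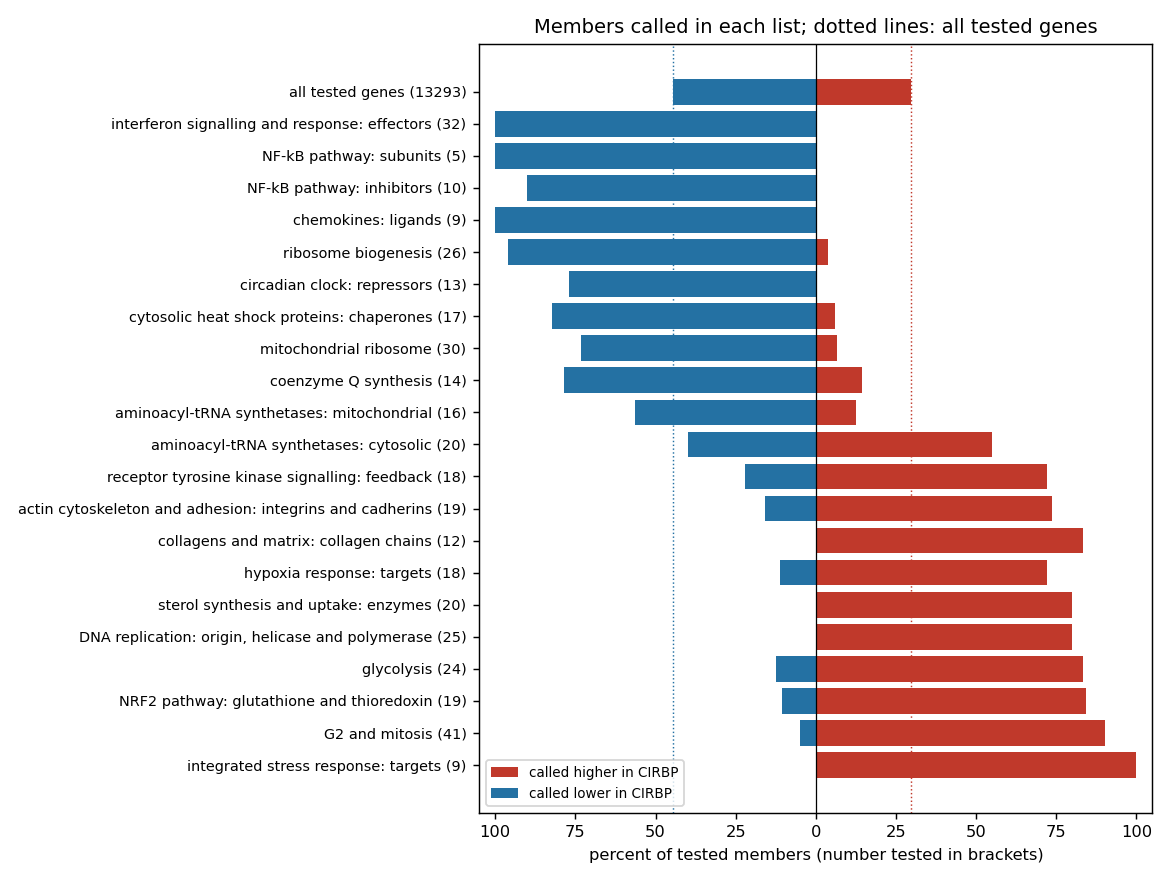
Bars give the percentage of the tested members of each list called higher in CIRBP (red, right) or lower (blue, left), with the number tested in brackets and dotted lines at the shares of all 13293 tested genes (29.8% and 44.5%). All tested interferon effectors (32), NF-kB subunits (5) and chemokine ligands (9) were called lower. All 9 genes listed as integrated stress response targets were called higher. Of the effectors 9, and of the chemokine ligands 4, passed the filter through NC alone, so their direction was built in.

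Abundant secreted and surface proteins showed large differences in amount. Spp1 (osteopontin), a matrix cytokine, was at 1121, 1055 and 1177 FPKM in the NC libraries and 3864, 3625 and 3654 FPKM in the CIRBP libraries (log2 fold change 1.73). Ptn, a heparin-binding growth factor, was at 578, 560.1 and 604 FPKM in the NC libraries and 1652, 1639 and 1546 FPKM in the CIRBP libraries (log2 fold change 1.47), and Mfge8, which bridges dying cells to phagocytes, rose from 609.5 ± 20.4 to 1322 ± 42.1 FPKM. Scg2, a granin of secretory granules, rose from 83.3 ± 3.63 to 339 ± 9.34 FPKM. Of the genes chosen for size of change, Tma7, a short gene tied to the translation machinery, had the largest log2 increase. It was at 0.593, 0.529 and 0.313 FPKM in the NC libraries and 37.8, 22.8 and 36.6 FPKM in the CIRBP libraries (log2 fold change 4.47). In the other libraries it was at 25.98, 0.474 and 0.647 FPKM in si-NC and 0.523, 29.5 and 23.2 FPKM in si-CIRBP, so it was low in all NC libraries, in 2 of si-NC and in 1 of si-CIRBP, and high in the rest. Ncbp2, a subunit of the nuclear cap-binding complex, rose from 0.586 ± 0.253 to 6.86 ± 2.43 FPKM. Tma7 and Ncbp2 passed the filter through CIRBP alone, so their direction was built in. Clec3b (tetranectin) was at 4.61, 4.99 and 5.17 FPKM in the NC libraries and 36.9, 37.2 and 43.3 FPKM in the CIRBP libraries (log2 fold change 2.76). Cpm, a carboxypeptidase of the cell surface, Gad1, which makes GABA, and the potassium channel Kcnh6 rose by 2.18, 2.202 and 2.08 on the log2 scale. Ngfr, the p75 neurotrophin receptor found on neural crest and glial cells, fell from 300.1 ± 0.211 to 83.96 ± 5.298 FPKM (log2 fold change -1.83). Cd63, a protein of late endosomes, fell from 713 ± 46.7 to 371 ± 28.3 FPKM, Lmna (lamin A and C) fell from 529 ± 7.13 to 344 ± 19.7 FPKM and Rassf4 fell from 360.3 ± 4.14 to 140.3 ± 4.33 FPKM. The calcium-activated channel Kcnn1 and the kinase Nuak1 fell (log2 fold change -3.104 and -2.82).

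Most neural markers tested rose, 7 of 8 oligodendrocyte and neuron markers and 1 of them lower (29.8% and 44.5% of all tested genes). The astrocyte markers tested were 8 of 8 higher under each scaling and 4 of 8 in the fit of 12 libraries. Of the 8, Sox9 passed the filter through CIRBP alone, so its direction was built in. Aldoc, which is a glycolysis gene too, rose most, then Ndrg2 (log2 fold change 0.78) and Gja1 (log2 fold change 0.74). Nes (nestin), a filament of progenitors and reactive cells, was at 22.8, 21.6 and 23.9 FPKM in the NC libraries and 59.6, 56.8 and 55.8 FPKM in the CIRBP libraries (log2 fold change 1.297). Gfap rose from 4.5 ± 0.252 to 6.88 ± 0.00968 FPKM, and Olig2 rose from 2.64 ± 0.0476 to 5.07 ± 0.2405 FPKM. Sox10, the exception, was at 203, 203 and 202 FPKM in the NC libraries and 157, 153 and 155 FPKM in the CIRBP libraries (log2 fold change -0.39).

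Motif shares across the lists are set side by side in the plot of promoter matches. The bars for genes selected by size of change alone stay near those of all tested genes for most motifs. They depart for the interferon element and the E-box among lower genes and for the composite element among higher genes.

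**Figure D4:**
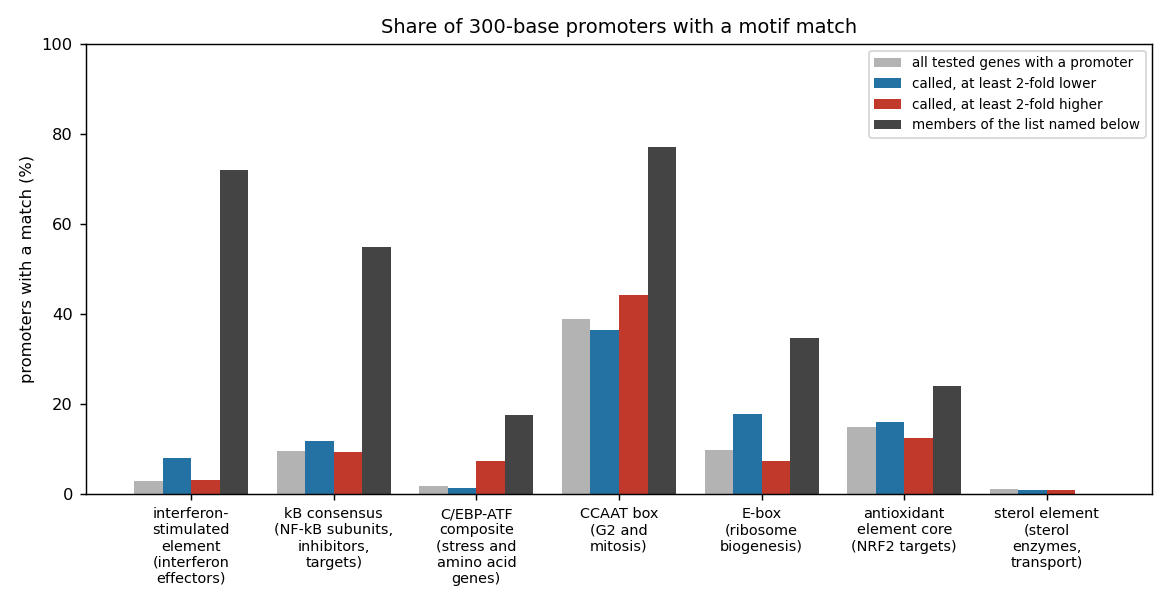
Bars give the percentage of 300-base promoters with at least 1 match on either strand, among all 8801 tested genes with a promoter (grey), genes called and at least 2-fold lower (blue, 459 promoters) or higher (red, 190 promoters), and the members of the list named below each motif (dark). The dark bar is 72.0% for the interferon element in interferon effectors and 0% for the sterol element in 21 sterol genes.

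More genes were near absent in CIRBP than in NC. Counting all 18344 rows of the table with no filter, 12641 to 12772 reached 1 FPKM in the CIRBP libraries and 13150 to 13196 in the NC libraries, and 1034 to 1072 rows were listed at 0 against 644 to 729. The relative depth, estimated from the steps between low values, was 0.895 to 1.03 in the CIRBP libraries and 0.842 to 1.00 in the NC libraries, as a multiple of NC library 1. A mean of at least 2 FPKM in NC with under 0.2 FPKM in CIRBP was met by 62 rows, 21 of them assembled by the authors, and the reverse by 3, the clone-named AABR07066820.1, U6 and 7SK. The 62 included the interferon genes Oasl, Oas2, Mx1 and Ifi44l and the chemokine Ccl5, but also genes with other roles, such as Cplx1 of synaptic vesicles, the glutamate receptor Grm4, the myosin Myo7a and the haem carrier Hpx. Cplx1 fell from 2.43 ± 0.244 to 0.0221 ± 0.00815 FPKM and Grm4 fell from 6.02 ± 0.313 to 0.102 ± 0.0377 FPKM. Of the 62 rows, 18 had at least 2 FPKM in the si-NC libraries and 2 in those labelled si-CIRBP.

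Whether these changes differ from those in the other arm was tested in a fit of all 12 libraries, as the change in CIRBP against NC minus the change in si-CIRBP against si-NC. Cirbp averaged 26.7 ± 2.43 FPKM over the si-NC libraries and 27.6 ± 1.04 FPKM over the si-CIRBP ones, so it was not lower in the libraries labelled si-CIRBP. The arms also differed in markers of cell type. Mean Acta2, the smooth muscle actin, came to 1.41 ± 0.915 FPKM for NC against 583 ± 456 FPKM for si-NC, and Myod1, the myogenic factor, to 0.0414 ± 0.04095 against 12.9 ± 10.2 FPKM. The fibroblast collagens Col1a1 and Col3a1 averaged 1.79 ± 0.585 and 1.04 ± 0.235 FPKM for NC against 366 ± 310.2 and 255 ± 223 FPKM for si-NC. The si-NC libraries were uneven in these genes, with Acta2 at 73.8 FPKM in replicate 1 and 954 and 722 FPKM in the others. Whether both arms used the same cells is not settled by these data, so a difference between the arms cannot be told apart from a difference between their cells. Of 14257 genes tested, 279 differed by at least 1 on the log2 scale at a limma adjusted p under 0.05, 94 of them higher in the CIRBP arm (0.659%) and 185 lower (1.3%), together 1.96%. Of the 1108 genes called and changed at least 2-fold in CIRBP, 234 were among them. These 1108 were chosen by a change that is itself a term of the difference, so the choice raises their share. The 793 lower genes had a median change of -0.60 in si-CIRBP against si-NC and 586 were called lower there too, where 20.5% of all genes were. The 315 higher genes had a median of 0.46, and 152 were called higher there, where 9.08% of all genes were.

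Of the 32 tested interferon effectors, 2 were called different between the arms (1.96% of all genes tested there). These were Mx1 (difference 1.37) and Bst2 (difference 1.4), which both fell less in CIRBP on the log2(FPKM + 1) scale. Mx1 was under 0.2 FPKM in CIRBP, where the 1 added to each value limits the fall that can be measured. Whatever the size of the difference, 9 of the 32 had a limma adjusted p under 0.05. Isg20, an interferon-induced nuclease outside the list, fell more in CIRBP (difference -1.56, limma adjusted p = 0.00475). Mx2 changed by -5.11 in si-CIRBP against si-NC (difference 0.09, SE 0.1296, limma adjusted p = 0.678), and the differences of Samd9 and Rsad2 were -0.48 and 0.44 on the log2 scale, neither of them called. The difference of Ifit3 was 0.91 with a limma adjusted p of 0.0267, under the size of 1 that a call needs on the log2 scale. Ifit3 and Rsad2 were under 1 FPKM in CIRBP and in si-CIRBP (0.774 and 0.73 FPKM in the latter). They began higher in si-NC (30.1 and 21.6 FPKM) than in NC. The 1 added to each value limits such falls, so their positive differences do not show a smaller fall in CIRBP. Ifit3 was called in 2 of 12 fits that left out 1 library, without si-NC replicate 2 (difference 1.05) and without si-CIRBP replicate 1 (difference 1.10). A difference that was not called does not show that the changes are the same.

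Of the 9 tested targets of the integrated stress response, 4 were called different and 6 had an adjusted p under 0.05. Trib3 changed by -0.24 in the si arm (difference 3.38, SE 0.634, limma adjusted p = 0.00564), Chac1 by -0.26 (difference 3.01), Asns by 0.25 (difference 2.01) and Jdp2 by -0.08 (difference 1.06) on the log2 scale. Ddit4 and Vldlr were not called (limma adjusted p = 0.587 and 0.139). Over all 14257 genes, 0.659% were called with a positive difference and 1.3% with a negative one. Of 18 amino acid transporters 5 were called, all with a positive difference. Among them was Slc7a11 (difference 2.33), which passed the filter on the NC and CIRBP libraries through CIRBP alone. Of 45 tested NF-kB pathway genes 7 were called, all with a negative difference, -2.402 for Tnfaip3 and -1.87 for Relb.

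Single libraries of the si arm stood apart. In si-CIRBP replicate 1, Trib3 was at 19.7 FPKM against 6.52 and 6.16 FPKM in the others of its group, and Tnfaip3 at 24.5 FPKM against 5.48 and 5.80 FPKM. In si-NC replicate 1, Trib3 was at 5.07 FPKM against 19.1 and 14.05 FPKM. Without si-CIRBP replicate 1 the differences were 3.88 for Trib3 and -1.75 for Tnfaip3, both still called. Stc2 and Gadd45b did not pass in the fit of 12 libraries (differences 1.49 and -2.05, limma adjusted p = 0.0517 and 0.0687). Stc2 passed without si-NC replicate 1 (difference 1.94) and without si-CIRBP replicate 1 (difference 1.75), and Gadd45b passed without si-CIRBP replicate 1, 2 or 3 (differences -1.27, -2.44 and -2.43).

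**Figure D5:**
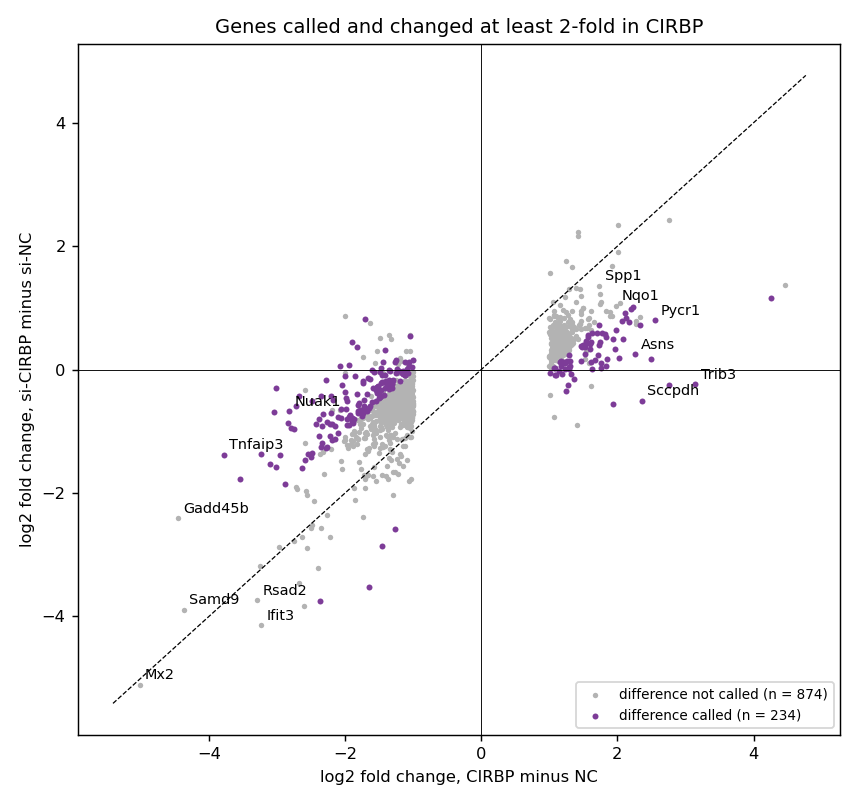
Each point is 1 of the 1108 genes called and changed at least 2-fold in CIRBP against NC, with that log2 fold change on the horizontal axis and the change in si-CIRBP against si-NC on the vertical axis (both from the fit of 12 libraries). Purple marks the 234 genes whose changes differ by the test, grey the rest, and the dashed line marks equal changes. Mx2 lies near the line and Trib3 far from it.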

How the data were processed

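RNA from 3 OGD/R + NC and 3 OGD/R + CIRBP libraries was compared. Per the labels, total RNA was extracted with TRIzol and poly-A RNA was made into libraries read as pairs of 100 bases. The authors deposited FPKM per gene, per the file headers. The submitters' processing notes name Bowtie2 2.3.3.1 and Cufflinks 2.2.1 without roles, and GRCm38 and mm10, which are mouse builds, while the identifiers are those of rat. Counts were not used here, so absolute depth is unknown. No source states whether strand was used in counting.

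Genes that reached 1 FPKM in at least 3 of the 6 libraries were tested with limma 3.58.1 (R 4.3.3) on log2(FPKM + 1), with a trended prior and Benjamini-Hochberg adjustment over all 13293 genes. Called means an adjusted p under 0.05. Fold changes are on the log2(FPKM + 1) scale, which understates changes of weakly expressed genes. The change between arms was tested on 12 libraries, where called also means a difference of at least 1. The limma script was tested on simulated data.

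Genes were named by rule, namely Cirbp and Rbm3, the 15 largest changes each way, the 10 largest FPKM differences each way, genes near absent in a group, set key members and up to 4 called members per role of a list. Further list members were named after their values were seen, to show both directions of a list. The members and lists were chosen with earlier results of these data known. Promoters are from RefSeq (GRCr8), matched by symbol. Alternatives were another pseudocount, other filters, scalings and fits, a replicate block, and leaving out each library. Some genes that these rules select are not reported here.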

Additional observations from a re-analysis of the deposited data

Results flagged for a closer look

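Among the 15 largest changes in each direction, 18 genes were picked out because their change in CIRBP against NC differed from the change in si-CIRBP against si-NC, by a test of the difference in 12 libraries (limma, adjusted p under 0.05 and a difference of at least 1 on the log2 scale). Each of the 18 stayed called in all 12 fits that left out 1 library. They come from genes chosen by their change in CIRBP against NC, a term of the difference, which favours a call. Of the stress response and amino acid genes, the difference was 3.38 for Trib3, 3.01 for Chac1, 2.33 for Slc7a11, 2.01 for Asns and 1.75 for Pycr1 on the log2 scale. Sccpdh, a dehydrogenase-like protein, differed by 2.87. It was at 0.6699, 0.661 and 0.685 FPKM in NC and 6.57, 8.35 and 7.901 FPKM in CIRBP. In the comparison of these groups it passed the filter through CIRBP alone. Differences were 1.603 for Ddit4l2, 1.59 for Kcnh6, 1.399 for Cpm and 1.22 for Gad1.

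In the other direction, NF-kB genes differed by -2.402 (Tnfaip3) and -1.87 (Relb), and the growth arrest gene Gadd45g by -2.37 on the log2 scale. The opsin relative Rgr differed by -2.71, the kinase Nuak1 by -2.14 and the glutamate receptor subunit Grin3b by -1.98 on the log2 scale. Kcnn1 differed by -1.58 and the interferon-induced nuclease Isg20 by -1.56 on the log2 scale. The Cirbp values of the si arm do not follow its labels, so these differences set the CIRBP libraries against libraries labelled si-CIRBP whose Cirbp was not lower and whose cell type markers differ.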

How the results depend on the processing

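With log2(FPKM + 0.1), 1682 genes were called and at least 2-fold changed in place of 1108, and 507 in place of 315 were higher. With a mean of at least 5 FPKM, 655 genes changed at least 2-fold and 422 were lower, with 9725 genes tested. The difference between arms was called for 279 genes, 502 with log2(FPKM + 0.1) and 530 with weights per library, whose estimate stopped before it converged. The other alternatives kept these counts of all genes within 1.5 times. With all 12 libraries in the fit, 39 named genes lost their call with the direction kept, at an adjusted p of 0.051 to 0.839 in limma, namely Acaca, Acly, Aldh18a1, Atf4, Bnip3, Ca9, Ccl2, Cdkn1a, Col3a1, Cxcl10, Ddit3, Ddit4, Fasn, Fzr1, G3bp1, Gadd45a, Gpi, Hbegf, Hmox1, Hspa5, Ier3, Ifngr1, Ireb2, Junb, Keap1, Ldha, Mki67, Mt-cyb, Nfe2l2, Nop10, Plk1, Ppat, S100b, Shmt1, Slc38a2, Sod2, Thbs1, Vim and Zfp36. The counts of called members fell by more than 1.5 times there, among others, for hypoxia targets and for genes of glycolysis and of G2 and mitosis, as given above. Leaving out 1 library at a time gave 9384 to 9647 called genes, 3720 to 3820 higher and 5650 to 5841 lower, 1102 to 1149 at least 2-fold changed (315 to 338 higher, 778 to 820 lower), a Cirbp change of 0.81 to 0.86 and 231 to 362 differences between arms, the last an alternative chosen after seeing the data. No library left out of the 6 ended the Cirbp call. Acly, Col3a1, G3bp1, Nfe2l2 and Slc38a2 lost their calls in some of the fits that left out 1 library. Libraries with the same replicate number had correlated deviations of 0.111, 0.038 and 0.112, each the best match of its library, but not all over 0.1, so the number was not taken as a pairing. A replicate block gave 9973 called genes, 4006 higher and 5967 lower, 1113 at least 2-fold changed (319 higher, 794 lower), 0.83 for Cirbp and 270 differences between arms. Scaling to one median or by median ratios gave 0.97 and 0.94 for Cirbp and brought Rbm3 past the threshold. Under both, Eif2ak4, Ifngr1, Ireb2, Paics and Vim lost their calls. G3bp1 turned to 0.0363 and 0.0024 under these scalings and Jun and Ppat to 0.0888 and 0.0237 under the first, which shift all genes alike. Depth limits weak genes most, and its absolute value is unknown here.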

Other observations

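Of 10071 rows with a mean of at least 5 FPKM in a group, 22 had 1 library at least 5-fold from the other two of its group on FPKM + 1, while those differed by less than 2-fold. None of the 22 was called by limma. Rpl8, a ribosomal protein, is one, at 198, 1.19 and 2.401 FPKM in the NC libraries. Such rows carry no result above.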
